A study of Homo sapiens with 10 samples.

Results

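KLF4 and 9 of its paralogues, KLF2, KLF3, KLF5, KLF6, KLF7, KLF9, KLF10, KLF11 and KLF13, were followed through the RNA of PC3 cells treated with the LXR agonist GW3965. These 10 genes were taken by symbol from the 62656 genes of the table, which held 18 KLF genes. They were chosen by values of this same experiment, KLF4's RPKM in the GW3965 and DMSO libraries, so the difference between GW3965 and DMSO in these genes is given as a description, with no test. PC3 is a human prostate cancer cell line that was derived from a bone metastasis. GW3965 is a synthetic ligand that activates both liver X receptors (LXRs), nuclear receptors that sense oxysterols. In both groups, the cells were starved overnight and then kept for 24 h in RPMI-1640 medium, with GW3965 at 1 µM in 5 libraries and with its vehicle DMSO alone in the other 5 libraries. The study used this experiment to look for genes downstream of LXRs. The libraries are named here by treatment and replicate number.

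Krüppel-like factors are transcription factors whose last part holds zinc fingers that bind GC-rich and CACCC-like DNA. The rest of each protein differs and recruits either activators such as EP300 or corepressors such as CTBP and SIN3 proteins. KLF4 is known for epithelial differentiation and as a reprogramming factor, and in proliferating epithelia it is often set against KLF5.

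The 10 libraries held between 30431690 and 41638859 reads, recovered from the RPKM values, and DMSO libraries (30612230 to 39387348 reads) overlapped GW3965 libraries (30431690 to 41638859 reads) in depth. RNAs of the 7SL family took between 12.0% and 23.2% of the reads. DMSO 1, GW3965 1 and GW3965 2 stood apart from the other libraries: on the first principal component (41.5% of the variance) they scored from 17.7 to 19.6, while the other 7 libraries scored at most 3.88. DMSO 4 lay farthest on the other side, at -21.8. For some of the genes below, values are also given without these 3 libraries. The labels do not say that the libraries came from separate cultures, so p-values measure the spread between these libraries, which may be technical. The epithelial keratins KRT8 (29.8 to 41.4 RPKM) and KRT18 (42.7 to 58.6 RPKM) and the mesenchymal filament VIM (59.9 to 78.8 RPKM) were high in every library. CDH1, the epithelial cadherin, lay between 0.152 and 0.518 RPKM. KLK3, a marker of luminal prostate cells, had 0 reads in every library. Of the markers of other cell types, PTPRC, CD3E, CDH5 and DCN had at most 14 reads in a library, PECAM1 lay between 0.409 and 0.760 RPKM and COL1A1 between 0.696 and 1.08 RPKM. In bulk RNA, fewer cells of a type and less RNA per cell cannot be told apart.

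Textbook LXR targets, taken as a check of the labels, were higher with GW3965. ABCA1, the pump that moves cholesterol out of cells, was at 3.43 ± 1.34 RPKM with DMSO and at 16.5 ± 2.37 RPKM with GW3965 (SD, n = 5 each), a log2 fold change of 2.29 (SE 0.202, limma adjusted p = 0.00063). ABCG1, a second sterol pump, rose by 2.12 on the log2 scale (SE 0.146, limma adjusted p = 0.000124). SREBF1, the regulator of fatty acid synthesis, rose by 0.74 (SE 0.084, limma adjusted p = 0.00362), and MYLIP, the ligase that degrades the LDL receptor, by 0.74 (SE 0.092, limma adjusted p = 0.00714). All 4 genes were higher in every GW3965 library than in any DMSO library. Without DMSO 1, GW3965 1 and GW3965 2, SREBF1 (log2 fold change 0.71, adjusted p = 0.0897) and MYLIP (0.68, adjusted p = 0.101) no longer passed the threshold in limma, with folds about as large.

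The zinc finger part of each gene is what makes the 10 genes 1 family, and the coding bases of that part show how near KLF4 stands to each relative and whether short reads could be shared. In GENCODE 29 transcripts (GRCh38), every one of the 10 genes held a coding stretch of 243 bases, or 81 codons, from the first cysteine of the first finger to the last histidine of the last. KLF4 carries it at codons 398 to 478 of its 479, that is, at the end of its coding sequence. The stretches of KLF4, of KLF2 as its nearest relative among the 10 genes and of KLF5 as the most abundant member are shown in the sense direction. Capitals in KLF4 and KLF2 mark the bases at which these genes differ from each other, and capitals in KLF5 mark the bases at which it differs from KLF4.
KLF4: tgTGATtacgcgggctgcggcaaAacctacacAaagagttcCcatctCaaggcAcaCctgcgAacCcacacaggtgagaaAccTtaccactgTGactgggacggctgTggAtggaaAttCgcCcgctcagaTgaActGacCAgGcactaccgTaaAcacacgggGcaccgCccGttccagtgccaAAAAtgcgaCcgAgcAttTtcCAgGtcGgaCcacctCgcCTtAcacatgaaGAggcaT
KLF2: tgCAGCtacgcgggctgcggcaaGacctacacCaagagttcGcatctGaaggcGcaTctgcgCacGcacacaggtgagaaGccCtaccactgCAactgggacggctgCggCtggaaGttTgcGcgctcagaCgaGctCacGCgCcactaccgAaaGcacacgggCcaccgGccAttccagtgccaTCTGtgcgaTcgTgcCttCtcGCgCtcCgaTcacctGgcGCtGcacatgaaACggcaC
KLF5: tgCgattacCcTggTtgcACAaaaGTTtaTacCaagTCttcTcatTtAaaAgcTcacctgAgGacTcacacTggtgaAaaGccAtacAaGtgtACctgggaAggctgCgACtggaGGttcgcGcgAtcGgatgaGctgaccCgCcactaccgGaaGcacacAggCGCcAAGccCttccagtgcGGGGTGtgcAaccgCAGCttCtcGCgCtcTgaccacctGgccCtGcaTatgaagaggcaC

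KLF4 and KLF2 differed at 52 of the 243 bases (78.6% identity), and their longest identical run was 17 bases. KLF4 and KLF5 shared 70.0%, with a longest identical run of 11 bases. The closest pair was KLF6 and KLF7 (83.5%), followed by KLF2 and KLF4, by KLF10 and KLF11 (78.2%) and by KLF9 and KLF13 (75.3%). The most distant pair was KLF3 and KLF9 (55.1%). Across all 10 genes, 85 of the 243 bases were the same. Of these, 37 lay at the first, 47 at the second and 1 at the third base of a codon.

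**Figure D1:**
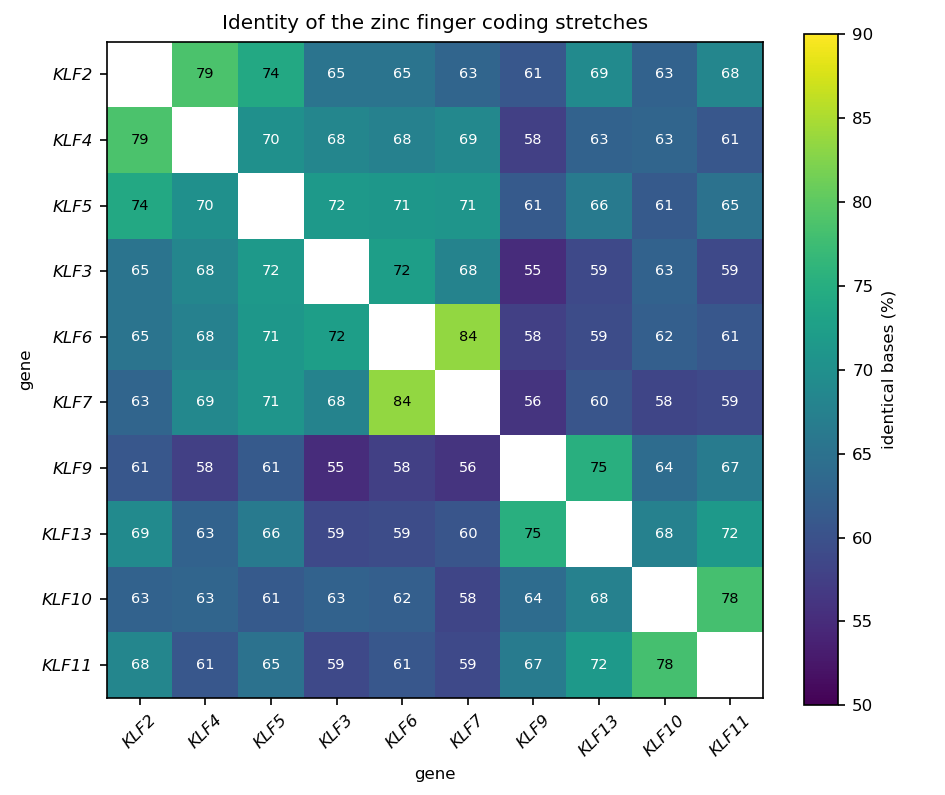
Percent of identical bases between the 243-base zinc finger coding stretches of the 10 KLF genes (rows and columns, one cell per pair). The brightest cells are the pairs KLF6 and KLF7 (83.5%), KLF2 and KLF4 (78.6%) and KLF10 and KLF11 (78.2%).

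These identities bear on what a count of 50-base reads can mean. Every window of 50 bases in the annotated exons of each gene was compared with all other GENCODE 29 transcripts. None of the 3702 windows of KLF4 occurred in another gene, and the same held for KLF2, KLF5, KLF6, KLF9 and KLF10. KLF13 shared 0.341% and KLF7 0.17% of its windows, in KLF7's case with the pseudogene KLF7P1, which had 1 to 9 reads in a library. KLF3 shared 3.99%, mostly with the antisense gene KLF3-AS1, and KLF11 8.09%, with an antisense gene at its end. The library kit kept strand, but the strand setting of the counting is not given in the sources used here. KLF3-AS1 had 47 to 100 reads in a library, against 917 to 1563 reads for KLF3. The mean of KLF3-AS1 was 0.257 RPKM with DMSO and 0.341 RPKM with GW3965. It had the most reads in GW3965 1 (94) and GW3965 2 (100), the libraries in which KLF3 was also highest. Whether antisense reads entered the values of KLF3 was not tested.

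KLF4 (ENSG00000136826) lies on the minus strand at chr9:107484852-107490482, and no other annotated gene overlaps it. The nearest coding gene, RAD23B, is 152658 bases away. With DMSO, KLF4 was at 2.79, 2.82, 3.01, 2.76 and 2.37 RPKM in libraries 1 to 5. With GW3965, it was at 5.99, 5.90, 5.50, 5.16 and 6.42 RPKM. The lowest GW3965 library lay above the highest DMSO library, and KLF4 was the 1 member of the 10 whose groups did not overlap in this direction. Over the 20402 tested genes (those averaging 0.5 RPKM or more), 1.35% had all 5 GW3965 libraries above all 5 DMSO libraries. Since KLF4 was chosen for this contrast, nothing is read from that share. The reads behind these values numbered 281 to 437 with DMSO and 669 to 864 with GW3965. The means were 2.75 ± 0.235 and 5.80 ± 0.483 RPKM (SD, n = 5 each), a ratio of 2.11, and the log2 fold change was 1.05 (SE 0.079). This fold change and those that follow are on the scale of log2(RPKM + 0.1).

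KLF4 differed by about as much without the libraries that stood apart. Leaving out DMSO 1, GW3965 1 and GW3965 2, its log2 fold change was 1.03 (SE 0.107). GW3965 1 and GW3965 2 had 5.99 and 5.90 RPKM, inside the range of the other GW3965 libraries. DMSO 5 was the lowest DMSO library and GW3965 5 the highest GW3965 library. The coefficient of variation was 8.55% with DMSO and 8.33% with GW3965, where counting error alone would give 5.29% and 3.63%. The pseudogene KLF4P1 had 0 to 14 reads in a library, against at least 281 reads for KLF4.

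**Figure D2:**
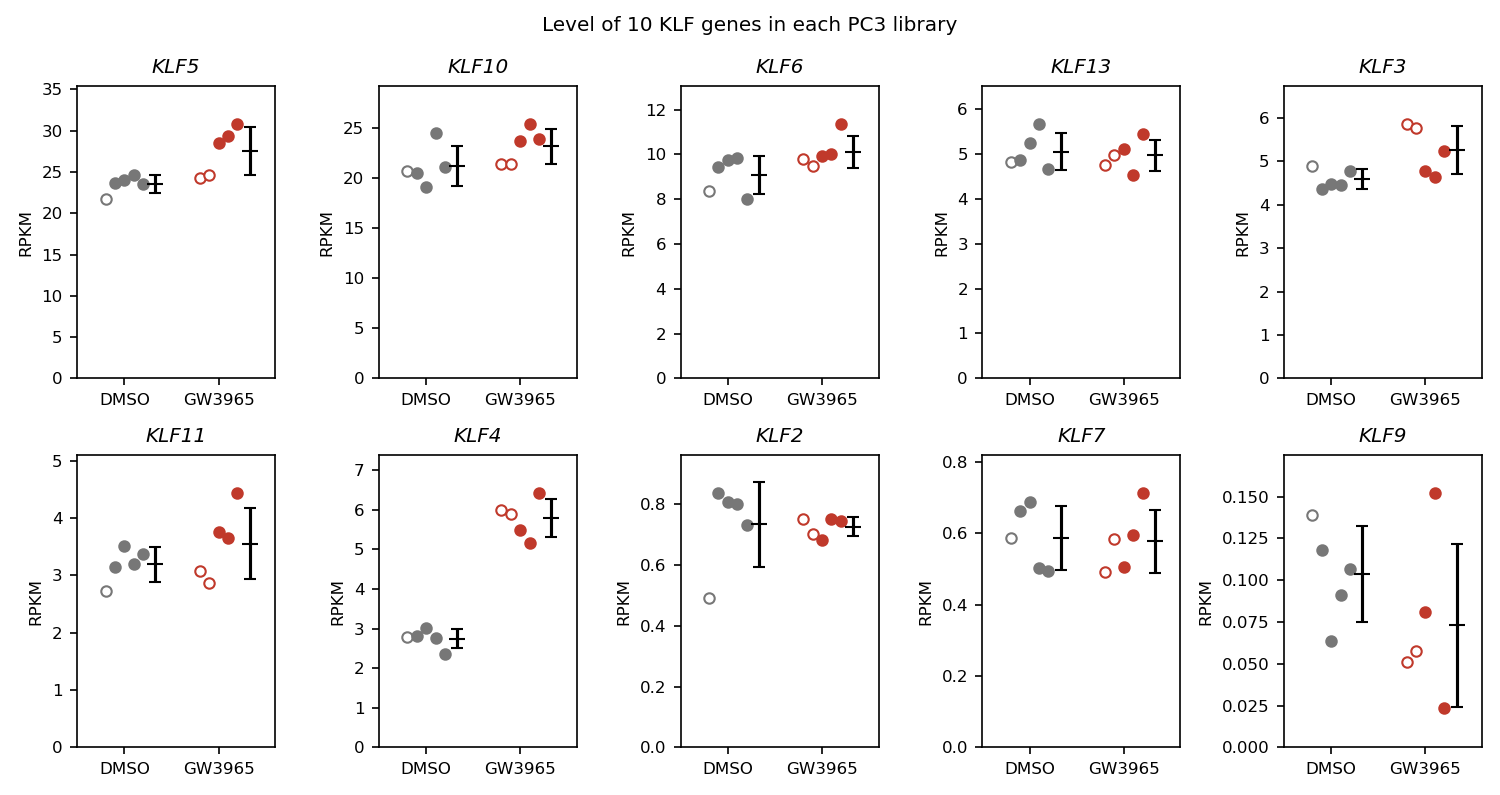
RPKM of the 10 KLF genes (one panel each, y axis from 0) in the 5 DMSO libraries (grey) and the 5 GW3965 libraries (red), from library 1 at the left to library 5 at the right, with mean and SD in black. Open points are DMSO 1, GW3965 1 and GW3965 2, and KLF4 is the panel in which the groups are clear of each other.

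KLF5, KLF4's counterpart in proliferating epithelial cells, was the most abundant member. It lies on the plus strand at chr13:73054976-73077542. With DMSO, KLF5 was at 21.7, 23.7, 24.0, 24.6 and 23.6 RPKM, and with GW3965 at 24.2, 24.7, 28.5, 29.3 and 30.8 RPKM. Of the GW3965 libraries, 4 of 5 lay above every DMSO library. GW3965 1 and GW3965 2, which stood apart, were the lowest of their group, and DMSO 1 was the lowest of its own. The log2 fold change was 0.22 (SE 0.075) over all libraries and 0.30 (SE 0.051) without these 3 libraries. The ratio of KLF5 to KLF4 was 7.77 to 9.96 with DMSO and 4.04 to 5.68 with GW3965.

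KLF2, the member nearest to KLF4 in the fingers and known from endothelial cells, showed no separation of the groups. It lies on the plus strand at chr19:16324817-16327874. KLF2 was at 0.493, 0.837, 0.808, 0.801 and 0.733 RPKM with DMSO and at 0.751, 0.701, 0.684, 0.751 and 0.744 RPKM with GW3965. All 5 GW3965 libraries lay inside the DMSO range, which DMSO 1 alone opened at its lower end. Its log2 fold change was 0.00 (SE 0.154), and without the 3 libraries that stood apart it was -0.11 (SE 0.151). KLF2 had 48 to 100 reads in a library, and its coefficient of variation with GW3965 (4.36%) was below the counting error of 11.7%.

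KLF6 and KLF7, the pair of members with the most alike fingers, stood far apart in level. KLF6, described as a tumour suppressor in prostate, lies on the minus strand at chr10:3775996-3785281. It was at 8.36, 9.44, 9.77, 9.84 and 8.00 RPKM with DMSO and at 9.78, 9.48, 9.91, 10.0 and 11.4 RPKM with GW3965. In 3 of 5 GW3965 libraries KLF6 lay above every DMSO library, by little except in GW3965 5, and the log2 fold change was 0.16 (SE 0.076). KLF7, which acts in neurons and adipocytes, lies on the minus strand at chr2:207074137-207167267, with 2 miRNA genes and the intronic KLF7-IT1 inside it. KLF7 was at 0.494 to 0.687 RPKM with DMSO and at 0.492 to 0.713 RPKM with GW3965, and its log2 fold change was -0.02 (SE 0.171).

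KLF10 and KLF11 are early targets of TGF-beta and recruit SIN3 corepressors. KLF10 lies on the minus strand at chr8:102648779-102655902 and was the second most abundant member. It was at 20.6, 20.5, 19.1, 24.5 and 21.0 RPKM with DMSO and at 21.4, 21.4, 23.6, 25.3 and 23.9 RPKM with GW3965. All 5 GW3965 libraries lay above the DMSO mean, but only GW3965 4 lay above DMSO 4, and the log2 fold change was 0.13 (SE 0.075). Without DMSO 1, GW3965 1 and GW3965 2, the log2 fold change of KLF10 was 0.20 (SE 0.086). KLF11 lies on the plus strand at chr2:10042849-10054836. It was at 2.72, 3.15, 3.51, 3.19 and 3.37 RPKM with DMSO and at 3.07, 2.86, 3.75, 3.66 and 4.43 RPKM with GW3965. The 3 libraries that stood apart held the 3 lowest KLF11 values of all 10. The log2 fold change of KLF11 was 0.14 (SE 0.116) over all libraries and 0.24 (SE 0.088) without these 3 libraries. Single libraries moved it as well: it was 0.06 (SE 0.103) without GW3965 5, 0.09 (SE 0.118) without DMSO 1 and 0.21 (SE 0.11) without GW3965 2.

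KLF3, a repressor that binds CTBP proteins, went the other way in the libraries that stood apart. It lies on the plus strand at chr4:38664196-38701042. KLF3 was at 4.88, 4.37, 4.47, 4.46 and 4.77 RPKM with DMSO and at 5.86, 5.78, 4.79, 4.64 and 5.25 RPKM with GW3965. GW3965 1 and GW3965 2 were the highest libraries of their group, and DMSO 1 was the highest DMSO library. The log2 fold change was 0.19 (SE 0.076) over all libraries and 0.11 (SE 0.070) without these 3 libraries.

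KLF9 and KLF13 form the last pair. KLF13, known from T cells and heart, lies on the plus strand at chr15:31326855-31435665. It was at 4.65 to 5.66 RPKM with DMSO and at 4.52 to 5.45 RPKM with GW3965, and the log2 fold change was -0.02 (SE 0.072). KLF9, a target of glucocorticoid and thyroid hormone, lies on the minus strand at chr9:70384597-70414624 and was close to the limit of detection. Its 0.0635 to 0.139 RPKM with DMSO and 0.0237 to 0.152 RPKM with GW3965 stood for 4 to 28 reads in a library. KLF9 was the 1 member under the mean of 0.5 RPKM and was not fitted, and with so few reads no difference is read from it.

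**Figure D3:**
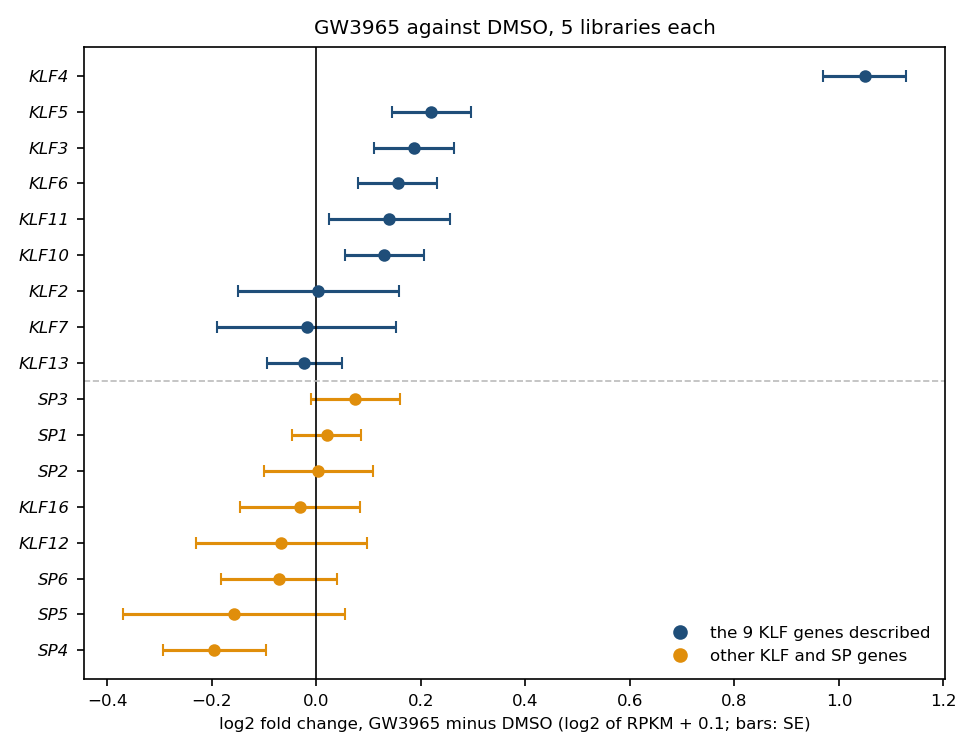
Log2 fold change (x axis, GW3965 minus DMSO, on log2 of RPKM + 0.1) with its SE for the 9 fitted members (blue) and the fitted KLF and SP genes that are no members (orange), 5 libraries per group. KLF4 lies at 1.05, and the other genes lie between -0.20 and 0.22.

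In the 7 libraries left without DMSO 1, GW3965 1 and GW3965 2, 4 members had all GW3965 libraries above all DMSO libraries: KLF4, KLF5, KLF6 and KLF11. Of all 20402 genes, 6.8% did so in these 7 libraries, and nothing about the members is read from their number. KLF5 was at 23.6 to 24.6 RPKM in the 4 DMSO libraries and at 28.5 to 30.8 RPKM in the 3 GW3965 libraries. KLF6 was at 8.00 to 9.84 against 9.91 to 11.4 RPKM, and KLF11 at 3.15 to 3.51 against 3.66 to 4.43 RPKM. KLF10, KLF3, KLF2, KLF7, KLF9 and KLF13 overlapped. What set these 3 libraries apart was not tested.

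**Figure D4:**
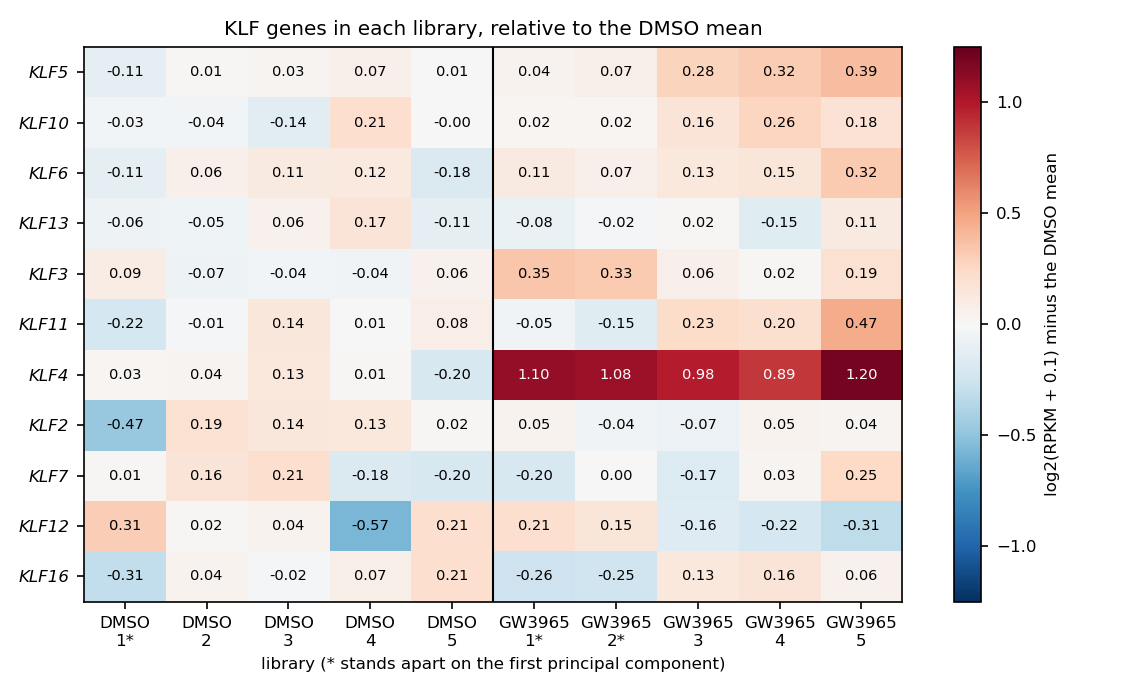
Difference of log2(RPKM + 0.1) from the DMSO mean for the 9 fitted members and for KLF12 and KLF16 (rows) in each library (columns, those that stood apart marked with an asterisk). KLF4 reads 0.89 to 1.20 in the GW3965 libraries, while KLF5 and KLF11 are lower, and KLF3 higher, in GW3965 1 and GW3965 2 than in GW3965 3 and GW3965 4.

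RPKM is a level per length, so the members can also be ordered. The order depends on the gene lengths behind the RPKM, which equalled those of GENCODE 29 for 25009 of 44230 genes. Levels per transcript length were not run. With DMSO the order of the means was KLF5 (23.5 RPKM), KLF10 (21.2), KLF6 (9.08), KLF13 (5.05), KLF3 (4.59), KLF11 (3.19), KLF4 (2.75), KLF2 (0.734), KLF7 (0.587) and KLF9 (0.104). The library ranges of KLF5 and KLF10 overlapped, as did those of KLF13 and KLF3, of KLF11 and KLF4, and of KLF2 and KLF7. The other neighbours did not overlap. With GW3965, KLF4 (5.80 RPKM) was above KLF3 (5.26), KLF13 (4.96) and KLF11 (3.55) in mean, although its range of 5.16 to 6.42 RPKM overlapped that of KLF3 and of KLF13. KLF4 made up 3.89% of the summed level of the 10 members with DMSO and 7.12% with GW3965. The summed level was 67.1 to 76.3 RPKM with DMSO and 76.4 to 89.1 RPKM with GW3965. Of the difference of 10.9 RPKM between the means, KLF5 gave 3.99, KLF4 3.05 and KLF10 1.98 RPKM. KLF5 was at 23.5 ± 1.09 RPKM with DMSO and at 27.5 ± 2.91 RPKM with GW3965 (SD, n = 5 each), and its groups overlapped. KLF4 was at 2.75 ± 0.235 and 5.80 ± 0.483 RPKM. Whether the difference in level was larger for KLF5 than for KLF4 was not tested.

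**Figure D5:**
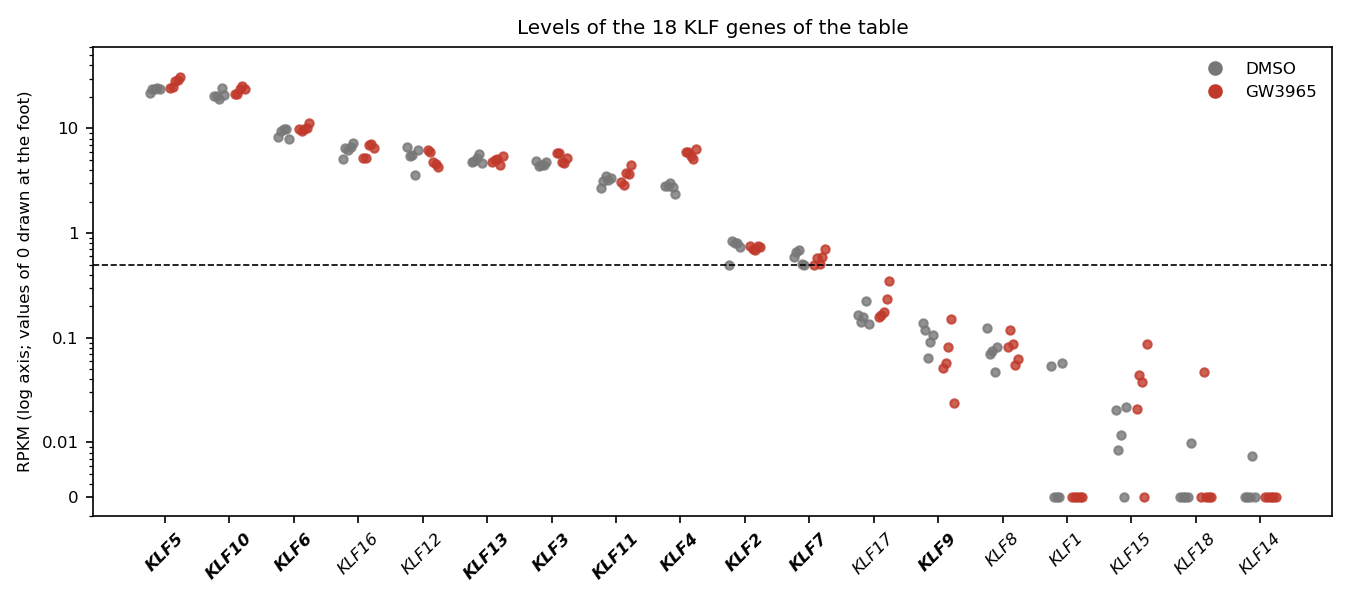
RPKM (log axis, values of 0 drawn at the foot) of the 18 KLF genes of the table in the 5 DMSO libraries (grey) and the 5 GW3965 libraries (red), in order of the DMSO mean. The 10 members are in bold, and the dashed line at 0.5 RPKM divides 11 fitted KLF genes from 7 low ones.

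The 8 KLF genes that are no members included only KLF12 and KLF16 above 0.5 RPKM. KLF12, a repressor of AP-2 alpha, was at 3.58 to 6.68 RPKM with DMSO and at 4.30 to 6.22 RPKM with GW3965, with a log2 fold change of -0.07 (SE 0.164, limma adjusted p = 0.974). Leaving out DMSO 4, its lowest library, gave -0.21 (SE 0.120), and leaving out DMSO 1, its highest, gave 0.01 (SE 0.166). KLF12 was at 5.97 to 6.68 RPKM in the 3 libraries that stood apart and at 3.58 to 6.21 RPKM in the other 7. Without these 3 libraries its log2 fold change was -0.15 (SE 0.171). KLF16 was at 5.06 to 7.27 and 5.25 to 7.03 RPKM, with a log2 fold change of -0.03 (SE 0.115, limma adjusted p = 0.983). KLF16 was at 5.06 to 5.26 RPKM in the 3 libraries that stood apart and at 6.20 to 7.27 RPKM in the other 7. Its log2 fold change was -0.11 (SE 0.105) without DMSO 1 and 0.04 (SE 0.072) without all 3 libraries. KLF1, KLF8, KLF14, KLF15, KLF17 and KLF18 had at most 60 reads in a library. The SP factors, which share the GC box with KLF proteins, were led by SP1 (21.1 ± 1.85 RPKM with DMSO, 21.4 ± 0.872 with GW3965, SD, n = 5 each). Of 9 SP genes, 6 were tested and none passed. Their log2 fold changes ran from -0.20 (SP4) to 0.07 (SP3).

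The genes around the KLF family are described from 13 lists, with all p-values adjusted over all 20402 genes. In limma, 32 genes, 0.157% of those tested, passed an adjusted p of 0.05. Of 64 tested list genes that were neither members nor the 4 LXR targets, 0 passed. At an unadjusted p under 0.05 there were 2, TGFBR2 and IER3, and limma voom on the recovered reads also gave 0 and 2. Over all tested genes, 1427 (6.99%) had an unadjusted p under 0.05 in limma. The median log2 fold change was 0.005 over these 64 genes and 0.003 over all tested genes.

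Upstream of KLF2 and KLF4, the MAPK7 (ERK5) route was expressed but did not pass the test. Of 8 genes of this route, 7 were tested, with log2 fold changes from -0.18 (MAPK7, the kinase itself) to 0.16 (MEF2C, one of the MEF2 factors that it activates) and a median of 0.01. In the TGF-beta route to KLF10 and KLF11, 9 of 9 genes were tested and none passed. TGFBR2, the ligand-binding receptor, had the highest log2 fold change at 0.17 (SE 0.061, limma adjusted p = 0.563). Its GW3965 libraries (23.0 to 25.6 RPKM) lay just above its DMSO libraries (19.0 to 22.9 RPKM), as in 1.35% of all tested genes. SMAD3, a transducer of the same receptor, had the lowest at -0.15. For KLF9's glucocorticoid and clock route, 6 of 7 genes were tested, from -0.16 (FKBP5) to 0.19 (TSC22D3), both glucocorticoid targets. Of 12 immediate early genes, 6 were tested, from -0.24 for IER3 (SE 0.087, limma adjusted p = 0.567) to 0.12 for FOSL1, and EGR1, EGR3 and FOS had at most 16 reads in a library. IER3's GW3965 libraries (36.0 to 37.0 RPKM) lay below its DMSO libraries (37.1 to 52.3 RPKM). Nothing is read from the gap between the groups in TGFBR2 or in IER3.

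The genes of proteins that KLF factors work with gave no gene past the threshold. All 10 co-regulator genes were tested and none passed, with log2 fold changes from -0.13 (SAP30, of the SIN3 complex) to 0.13 (KAT2B, an acetyltransferase). All 7 genes of KLF turnover were tested, from -0.08 (SIAH1) to 0.07 (FBXO32), both ubiquitin ligases or parts of one, and none passed. Of 7 reprogramming partners, only MYC (15.2 ± 2.14 RPKM with DMSO, 15.0 ± 2.71 with GW3965, SD, n = 5 each) and SALL4 reached 0.5 RPKM. POU5F1 was at 0.427 and SOX2 at 0.140 RPKM with DMSO.

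Genes known as KLF4 targets did not pass the test either. Of 11 epithelial genes that KLF4 activates, 4 were tested, from -0.10 (LAMA3, a laminin chain) to 0.17 (KRT19, a simple epithelial keratin), with CDKN1A, the cell cycle inhibitor, at 2.46 ± 0.184 and 2.63 ± 0.458 RPKM (SD, n = 5 each). IVL, ALPI, SPRR1A and SPRR2A had 0 reads in every library. Of 7 genes that KLF4 represses, 6 were tested, from -0.25 (CCNE1, a cyclin of S phase entry) to 0.11 (ODC1, of polyamine synthesis), with a median of -0.04. The 6 endothelial targets of KLF2 and KLF4 all lay under 0.5 RPKM, and THBD had 0 reads in every library.

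The genes whose variation between libraries was most like that of KLF4 were sought among 7659 genes averaging 5 RPKM or more, after removing each group's mean. Over the 10 libraries, the closest were NOG (r = 0.95, rho = 0.90), SORL1 (r = 0.95, rho = 0.92), ITGB4 (r = 0.95, rho = 0.98), ACSS2 (r = 0.94, rho = 1.00) and ALDH3B1 (r = 0.93, rho = 0.93). Without the 2 libraries farthest from KLF4's median, r lay between 0.87 and 0.94. The points share library, depth and RNA composition, and the 5 genes are the extremes of many, so the values are a description only. NOG encodes the BMP antagonist noggin, and its mean went from 10.3 to 22.0 RPKM between DMSO and GW3965. The mean of SORL1, a sorting receptor, was 6.41 RPKM with DMSO and 6.26 RPKM with GW3965. The means of the remaining genes were higher with GW3965 than with DMSO: ITGB4 71.2 against 64.0, ACSS2 28.95 against 21.8 and ALDH3B1 6.745 against 5.59 RPKM.

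The promoter windows of the members differed in base composition. RefSeq (GRCh38.p14) gave windows of 300 bases, from 250 before to 50 after the start, for 8 of the 10 members, leaving KLF3 and KLF10. Each gene has a single window here, and its other annotated starts, where there are any, were not examined. The window of KLF4 (chr9:107489720-107490019, minus strand) was 69.0% G and C, against a median of 58.3% over 27305 promoters. The GC box GGGCGG, which KLF and SP proteins can bind, was matched 4 times in KLF4, 6 times in KLF2, 3 times in KLF13 and 2 times each in KLF6 and KLF11, counting both strands, and 44.6% of all promoters held it. KLF5 (40.7% G and C), KLF7 and KLF9 (32.7%) had no GC box. The CACCC box was matched in KLF5, KLF7 and KLF13, against 58.9% of all promoters. The nuclear receptor motif AGGTCA (13.9% of all promoters), and its repeat after 4 bases as in LXR elements (0.0183%), matched no member's window, which says only that these letters are not in these windows.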

How the data were processed

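RNA of PC3 cells was sequenced by the authors as stranded total RNA after removal of ribosomal RNA, in single reads of 50 bases (the labels call it polyA RNA). Per the labels, HISAT2 2.1.0, HTSeq 0.11.2 and DESeq2 1.22.2 with hg38 were used, while the methods name a mouse genome. All gene identifiers were human. The authors deposited a table of RPKM for 62656 genes and 10 libraries, in which 15119 genes were 0 throughout. Whole reads were recovered from the steps of these values: 100% of values above 0 were whole numbers of reads, within 1e-06 of a read plus 1e-09 of the value, and the library factors were median-of-ratios size factors to within 8.88e-16. For 972 genes whose reads shared a factor, the scale was set from GENCODE 29 lengths. Groups came from the sample titles. The members and lists were chosen with earlier results of these data known.

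Genes that averaged 0.5 RPKM or more (20402) were fitted by limma 3.58.1 (R 4.3.3) on log2(RPKM + 0.1), GW3965 against DMSO, with a mean trend and Benjamini-Hochberg adjustment at 0.05. The method was tested on simulated data. Some marker genes are not reported here. No test is given for the members. Named genes were the 10 members, the extremes and passing genes of each list, the other KLF and SP genes, and the 5 genes most like KLF4. The other list and marker genes with values were named after these were seen. Positions and exons came from GENCODE 29 (GRCh38). Gene lengths were the same as in GENCODE 29 for 25009 of 44230 genes. Alternatives were other pseudocounts, filters, normalizations, weights, voom, a replicate block and libraries left out. The 7-library overlaps were added after seeing the data.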

Additional observations from a re-analysis of the deposited data

Results flagged for a closer look

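Among 22 groups of 5 libraries (the 11 KLF genes that averaged 0.5 RPKM or more, in each treatment), 1 value lay far from the others: KLF2 in DMSO 1, at 0.493 RPKM (48 reads) against 0.733 to 0.837 RPKM in the other DMSO libraries. Its gap to the nearest of these was 0.744 of the group's range on the log2 scale, past the limit of 0.71. Chance flags about 1 in 20 such groups, which is 1.1 of 22. DMSO 1 is one of the libraries that stood apart. Without it and GW3965 1 and GW3965 2, the log2 fold change of KLF2 was -0.11 instead of 0.00. The part of that library's other differences in this value was not tested.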

How the results depend on the processing

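All 20 alternatives gave KLF4, KLF5, KLF3, KLF6, KLF10 and KLF11 a log2 fold change above 0: KLF4 0.86 to 1.09, KLF5 0.18 to 0.30, KLF3 0.11 to 0.23, KLF6 0.11 to 0.19, KLF10 0.09 to 0.20 and KLF11 0.06 to 0.24. The lowest value of KLF4 came with a pseudocount of 1, which by construction shrinks low genes. KLF2 (-0.11 to 0.05), KLF7 (-0.09 to 0.04), KLF13 (-0.06 to 0.02), KLF12 (-0.21 to 0.01) and KLF16 (-0.11 to 0.04) had values on both sides of 0. Relative to 32 genes past the threshold, there were 21 with no filter on low values, 20 in limma without trend, 56 with library quality weights, 63 with voom, 18 without DMSO 1, GW3965 1 and GW3965 2, and 17 to 38 with 1 library left out, falling by over 1.5 times without DMSO 3 (18), GW3965 2 (17), GW3965 3 (19), GW3965 4 (17) or GW3965 5 (21). The causes were not tested. Of the list genes 0 passed in every alternative. With the replicate block, 16 genes passed, and SREBF1 (adjusted p = 0.0643) and MYLIP (adjusted p = 0.0724) did not, each with the same log2 fold change of 0.74. The labels do not say whether the replicate numbers pair the libraries. The correlations of same-numbered deviations were 0.149, -0.0488, 0.0386, 0.16 and -0.138, and only number 4 matched its own best. With 5 numbers, these values cannot decide whether there was a pairing. Levels per RefSeq transcript length were not run, since the table used gives gene lengths only. Counting error was largest for KLF9 (22.7% with DMSO, 26.9% with GW3965) and KLF2 (11.6% with DMSO, 11.7% with GW3965). RPKM scaled by median-of-ratios factors cannot show a change shared by most genes.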
